A study of Homo sapiens with 6 samples.

Results

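The 10 genes described here are the transcriptional coactivators YAP1 and WWTR1 (the gene for TAZ), the DNA-binding factor TEAD1, and 7 genes widely used as readouts of these factors or as their regulators, ANKRD1, CTGF, CYR61, AMOTL2, AJUBA, LATS2 and AXL. They were taken by symbol from the 29476 genes of the count table, and the list was chosen with earlier results of these data known. All 10 were found, and all 10 were among the 15615 genes that passed the filter on low counts. Gene expression was measured by RNA-seq of polyadenylated RNA from A549 cells, an established human lung adenocarcinoma line, in 3 cultures transfected with a nontargeting control siRNA (siCtrl) and 3 transfected with 1 siRNA against DDX17 (siDDX17). The sample labels describe the control as a control plasmid under genotype, whereas the titles and the methods give an siRNA. The 6 libraries share the cell line and the transfection reagent, no second siRNA was used, and the time of harvest for RNA-seq was not given in the sources used here.

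YAP1 and TAZ do not bind DNA themselves. They enter the nucleus and act through TEAD factors, which recognise a short motif in promoters and enhancers. The kinase cascade of the Hippo pathway, in which MST kinases (STK3 and STK4) activate LATS1 and LATS2, phosphorylates YAP1 and TAZ and keeps them in the cytoplasm. Several targets of the complex, among them LATS2, AMOTL2 and AJUBA, encode regulators of the same pathway. DDX17 is an RNA helicase that works with its paralog DDX5 as a cofactor of the Microprocessor, the DROSHA and DGCR8 complex that cuts primary microRNAs, and nuclear YAP is known to bind DDX17.

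The TEAD motif CATTCC was searched on both strands, where the reverse strand reads GGAATG, in promoters of 300 bases from RefSeq (GRCh38.p14), which run from 250 bases before a start site to 50 after it. The table held 12 promoters of 8 of the 10 genes, with CTGF under its present symbol CCN2, and none for TEAD1 or CYR61. The motif stood in 7 of these 12 promoters, 1 for each of the 8 genes except WWTR1, and in 4928 of all 35116 promoters (14.03%). The promoter of CTGF held 3 copies, a number reached by 0.1281% of all promoters, and that of ANKRD1 held 2, a number reached or passed by 1.373%. A match of 6 letters is a description of the sequence and was not tested as a binding site. The windows of CTGF and ANKRD1 are shown because these genes carried the most copies and responded differently, and that of AMOTL2 because its level moved the other way from ANKRD1. The capitals mark the motif, and each window is written 5′ to 3′ on the strand of its gene, all 3 genes lying on the minus strand.
CTGF, chr6:131951524-131951553, with the motif 169 bases before the start site: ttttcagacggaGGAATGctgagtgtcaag
CTGF, chr6:131951455-131951483, with motifs 104 and 95 bases before the start site: gtggggaGGAATGcgaGGAATGtccctgt
ANKRD1, chr10:90921290-90921319, with the motif 220 bases before the start site: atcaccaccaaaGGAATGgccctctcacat
ANKRD1, chr10:90921198-90921227, with the motif 128 bases before the start site: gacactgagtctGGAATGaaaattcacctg
AMOTL2, chr3:134374499-134374528, with the motif 69 bases before the start site of its second promoter: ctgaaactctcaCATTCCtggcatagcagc

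The libraries held 30658136 to 39182371 counted reads. DDX17 itself stood at 177, 184 and 206 CPM in siCtrl and 32.1, 30.8 and 30.4 CPM in siDDX17, so the groups did not overlap and the labels held (log2 fold change −2.60, edgeR adjusted p = 5.89e-11). CPM here means counts scaled to a common library size after TMM, the composition correction of edgeR. The first siCtrl library stood apart from the other controls. Between libraries of a group, the chi-square per gene was 19.6 and 23.7 for the pairs with it and 3.44 to 5.57 for the other pairs. It was the highest of the 3 controls for all 10 genes, against 39.8% of all tested genes, so values without it are given beside the results that it moved most. Its level over the mean of the other 2 controls had a median of 0.40 on the log2 scale in the 10 genes (0.09 to 0.72), against 0.00 over all tested genes. Epithelial keratins of A549 were abundant, with 6 epithelial markers summing to 8135 to 8930 CPM in siCtrl and 6579 to 7101 CPM in siDDX17. That sum came almost wholly from KRT7, KRT8 and KRT18, which fell, as did KRT19 (edgeR adjusted p under 0.05 for each). EPCAM was low and rose, from 0.738 to 1.08 CPM in siCtrl to 2.21 to 2.28 CPM in siDDX17 (edgeR adjusted p = 7.68e-05). CDH1 did not pass the test (edgeR adjusted p = 0.247). The fibroblast markers summed to at most 7.71 CPM and the endothelial markers to at most 0.443 CPM. The blood cell markers summed to 20.8 to 28.3 CPM in siCtrl and 28.3 to 28.8 CPM in siDDX17, almost wholly from CD14. The part of these levels in the results was not tested.

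The 10 genes did not move one way after DDX17 knockdown. ANKRD1, CYR61 and AXL rose, YAP1, AMOTL2 and LATS2 fell, and WWTR1, TEAD1, CTGF and AJUBA did not pass the test. A gene was counted as having risen or fallen at an adjusted p under 0.05 in the quasi-likelihood test of edgeR, adjusted over all tested genes. Against these 3 of 10 in each direction, 24.5% of all tested genes rose and 24.3% fell, so the shares of the 10 genes were close to those of the transcriptome. ANKRD1 and CYR61 also exceeded a log2 fold change of 1, a limit passed upward by 4.65% of all tested genes. Without the third siCtrl library CYR61 was at 0.94, and only ANKRD1 stayed past the limit. None of the 10 fell past that limit, which 2.92% of tested genes did, although 3 fell at an unadjusted p under 0.05 and DESeq2 also called none. The groups did not overlap for 3 genes that were higher and 3 that were lower, against 28.8% and 27.7% of tested genes. The median log2 fold change of the 10 genes was −0.09, and that of all tested genes was 0.01. In RNA from whole cultures, a change in every cell and a change in the share of cells that express a gene cannot be told apart.

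**Figure D1:**
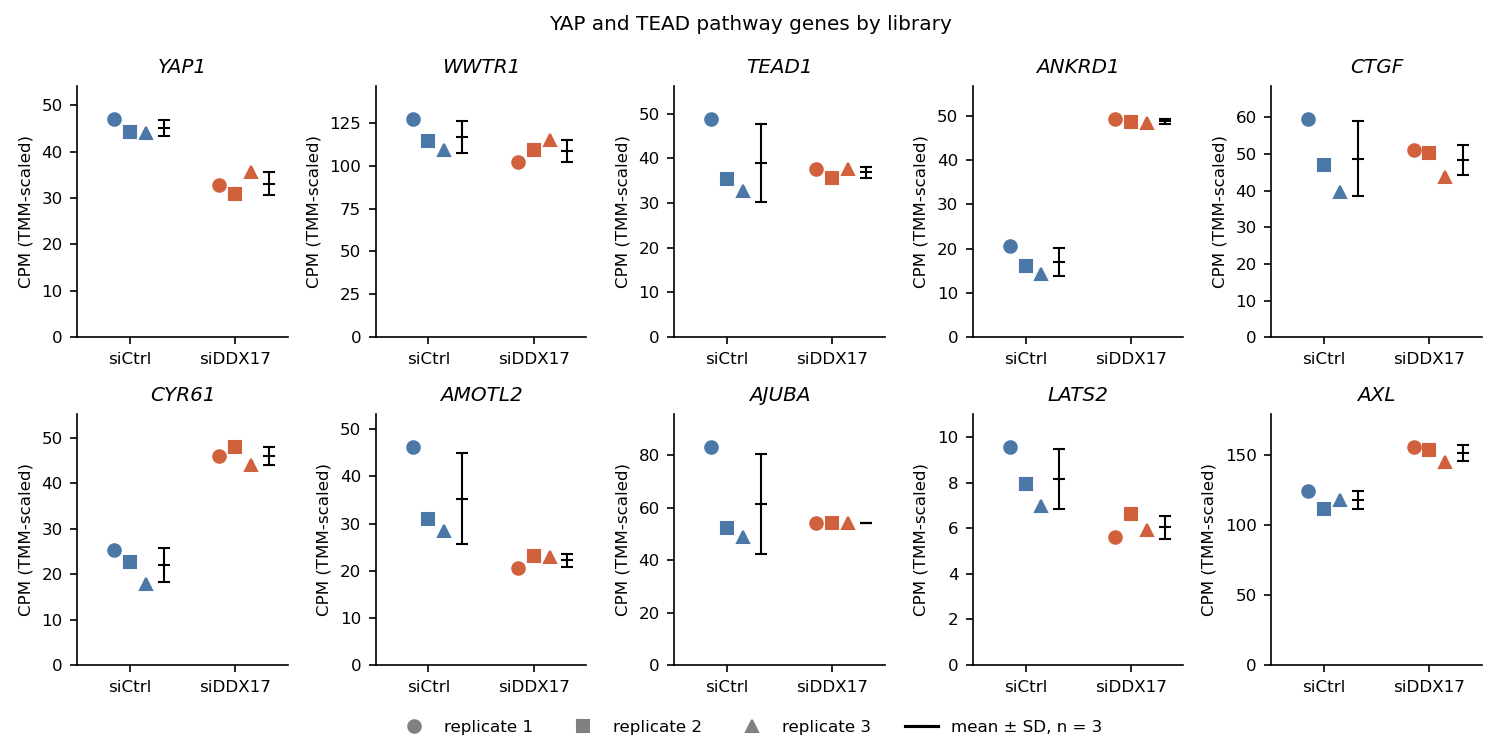
Level of each of the 10 genes in each library, in CPM after TMM scaling on linear axes that start at 0, with siCtrl and siDDX17 side by side, 1 marker per library and bars for the mean and SD (n = 3). ANKRD1 and CYR61 show the widest gaps relative to their control levels, and the siCtrl points spread more than the siDDX17 points in AJUBA, AMOTL2 and TEAD1.

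Of the coactivators, YAP1 fell and the change of WWTR1 did not pass the test. YAP1 (ENSG00000137693.13, chr11:102110447-102233424, plus strand) stood at 47.1, 44.2 and 44.1 CPM in siCtrl and 32.8, 30.9 and 35.7 CPM in siDDX17. All 3 knockdown libraries lay below all 3 controls, and the controls were close together. The log2 fold change was −0.45 (SE 0.0683, 95% interval −0.59 to −0.30, edgeR adjusted p = 0.000124), a level that fell by 26.7%. WWTR1 (ENSG00000018408.14, chr3:149517235-149736714, minus strand) stood at 127, 114 and 109 CPM in siCtrl and 102, 109 and 115 CPM in siDDX17. The groups overlapped, with a log2 fold change of −0.11 (95% interval −0.25 to 0.04, edgeR adjusted p = 0.222), which turned to 0.02 when only library size was used for scaling and was −0.05 (adjusted p = 0.460) without the first siCtrl library. The interval of WWTR1 therefore allowed a fall of up to 0.25 on the log2 scale.

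TEAD1, the DNA-binding partner, lay at 48.8, 35.4 and 32.6 CPM in siCtrl and 37.7, 35.5 and 37.6 CPM in siDDX17 (ENSG00000187079.14, chr11:12674421-12944737, plus strand). Only the first siCtrl library was above the knockdown libraries. The log2 fold change was −0.08 (95% interval −0.33 to 0.17, edgeR adjusted p = 0.608). Without that library it was 0.11 (adjusted p = 0.142), and with scaling by library size only it was 0.04, so its direction was not fixed.

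Among the classical targets, ANKRD1 and CYR61 rose and CTGF did not pass the test. ANKRD1 encodes an ankyrin repeat protein of the nucleus and, in muscle, of the sarcomere (ENSG00000148677.6, chr10:90912096-90921087, minus strand). The controls held 20.6, 16.2 and 14.3 CPM of it, and the siDDX17 libraries 49.4, 48.7 and 48.3 CPM. Every knockdown library was above every control, and the knockdown libraries were almost equal. The rise was 2.87-fold (log2 fold change 1.52, SE 0.104, 95% interval 1.30 to 1.75, edgeR adjusted p = 1.03e-07), at percentile 98.9 of the log2 fold changes of all tested genes. ANKRD1 is also a gene that the study followed from these libraries, so its direction here is not independent evidence.

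CYR61 and CTGF encode secreted matricellular proteins of one family, CCN1 and CCN2. CYR61 (ENSG00000142871.15, chr1:85580761-85584589, plus strand) stood at 25.4, 22.7 and 17.9 CPM in siCtrl and at 46.0, 48.1 and 44.1 CPM in siDDX17. The groups were clearly separate. CYR61 rose 2.10-fold (log2 fold change 1.07, SE 0.101, 95% interval 0.85 to 1.29, edgeR adjusted p = 1.85e-06). CTGF (ENSG00000118523.5, chr6:131948176-131951372, minus strand) stood at 59.6, 47.1 and 39.5 CPM in siCtrl and 51.1, 50.4 and 43.7 CPM in siDDX17. The knockdown values lay inside the range of the controls. The log2 fold change of CTGF was −0.01 (SE 0.116, 95% interval −0.26 to 0.24, edgeR adjusted p = 0.957), and its sign changed with the scaling, being 0.11 with library size only. Without the first siCtrl library, CTGF rose by 0.16 on the log2 scale (adjusted p = 0.04997), still well under the upward changes of ANKRD1 (1.68) and CYR61 (1.18) in the same fit.

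Of the 3 regulators that are also targets, AMOTL2 and LATS2 fell. AMOTL2 encodes an angiomotin, a junctional scaffold that binds YAP (ENSG00000114019.14, chr3:134355347-134375479, minus strand). It stood at 46.3, 31.0 and 28.4 CPM in siCtrl and 20.5, 23.1 and 22.9 CPM in siDDX17. The groups did not overlap, but the first control was far above the others. AMOTL2 fell by 37.1% (log2 fold change −0.67, SE 0.142, 95% interval −0.98 to −0.36, edgeR adjusted p = 0.00162). Without the first siCtrl library the log2 fold change was −0.43 (adjusted p = 4.39e-06), so that 1 library moved the value by over 1.5 times. A same-strand ribosomal protein pseudogene, RPL39P5, lies within AMOTL2 and had 118 to 255 reads per library, against at least 791 for AMOTL2, so reads there may have been split.

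LATS2, a kinase that inhibits YAP and TAZ, had few reads, at 9.60, 7.97 and 6.97 CPM in siCtrl and 5.63, 6.61 and 5.92 CPM in siDDX17 (ENSG00000150457.8, chr13:20973036-21061586, minus strand). The lowest control was just above the highest knockdown library. LATS2 fell by 25.9% (log2 fold change −0.43, SE 0.126, 95% interval −0.71 to −0.16, edgeR adjusted p = 0.0119). Leaving out the first siCtrl library gave −0.31 (adjusted p = 0.0255). The call was lost without the first siDDX17 library (−0.38, adjusted p = 0.0541) and with library size scaling (−0.31, adjusted p = 0.0730).

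AJUBA encodes a LIM domain protein that binds LATS kinases (ENSG00000129474.15, chr14:22971177-22982551, minus strand). Its siCtrl levels were 83.4, 52.3 and 49.0 CPM, and its siDDX17 levels were 54.3, 54.1 and 54.4 CPM. The knockdown libraries were almost identical and lay between the first control and the other 2. The log2 fold change was −0.18 (95% interval −0.50 to 0.13, edgeR adjusted p = 0.325). It was 0.09 (adjusted p = 0.172) without the first siCtrl library and −0.33 (adjusted p = 0.0496) without the third, so its direction and its call depended on the controls used. AJUBA also passed with all libraries and no filter on low counts (−0.19, edgeR adjusted p = 0.0344).

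AXL, a receptor tyrosine kinase of the cell surface (ENSG00000167601.11, chr19:41219223-41261766, plus strand), rose modestly. It stood at 124, 111 and 118 CPM in siCtrl and 156, 153 and 145 CPM in siDDX17. All knockdown libraries were above all controls. The rise was 1.28-fold (log2 fold change 0.36, SE 0.0594, 95% interval 0.23 to 0.49, edgeR adjusted p = 0.000232). AXL was at percentile 76.7 of the log2 fold changes of all tested genes, against 96.0 for CYR61. At the low end, AMOTL2 was at percentile 7.33, YAP1 at 14.3 and LATS2 at 14.9.

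**Figure D2:**
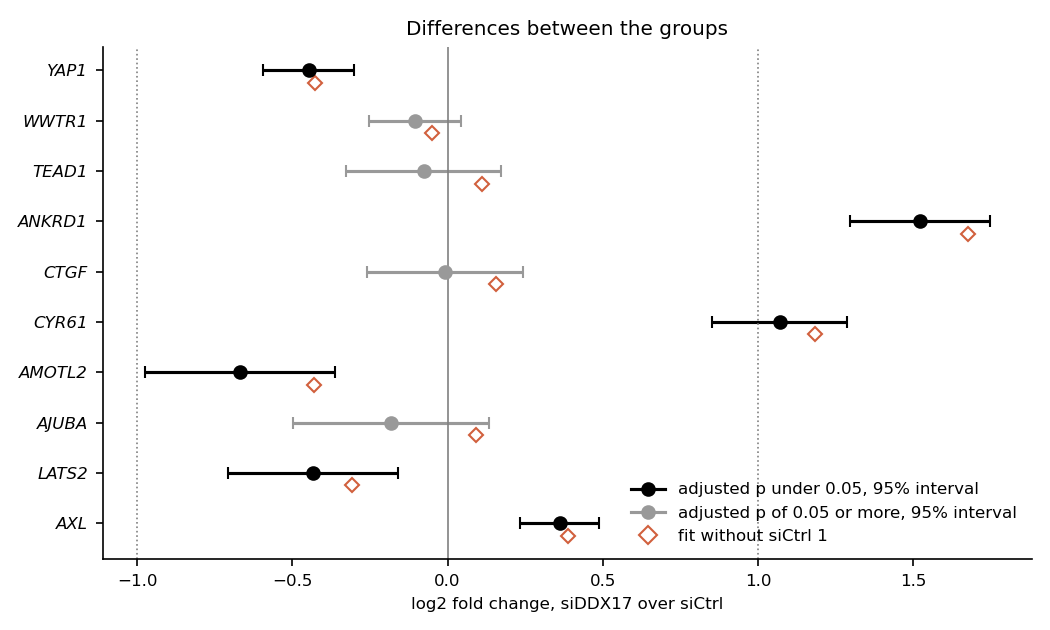
Log2 fold change of siDDX17 over siCtrl for each of the 10 genes, with its 95% interval from edgeR (n = 3 in each group) and, as an open diamond, the value without the first siCtrl library. Black marks an adjusted p under 0.05, grey one of 0.05 or more, and the dotted lines a log2 fold change of 1 in either direction. The intervals of ANKRD1, CYR61 and AXL lie above 0 and those of YAP1, AMOTL2 and LATS2 below it, while AMOTL2 moves from −0.67 to −0.43 without that library.

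A ratio of a pair of genes within 1 library does not depend on the scaling of the library. The pairs were chosen after the levels had been seen, so the ratios are a description with no test. The ratio of CYR61 to CTGF in FPKM, a level per length of transcript, was 0.435, 0.492 and 0.464 among the controls and 0.920, 0.975 and 1.03 among the siDDX17 libraries. This secreted pair thus went from CTGF well above CYR61 to nearly equal levels. The ratio of ANKRD1 to CTGF went from 0.409, 0.406 and 0.427 in siCtrl to 1.14, 1.14 and 1.31 in siDDX17. The ratio of ANKRD1 to CYR61, both of which rose, went from 0.940, 0.824 and 0.922 to 1.24, 1.17 and 1.27. Among the controls these ratios varied less than the levels themselves, although the first siCtrl library was high for all 3 genes, whereas among the siDDX17 libraries the ratios of ANKRD1 varied more than its level. The ratio of AMOTL2 to CTGF was 0.380, 0.323 and 0.352 in siCtrl and 0.196, 0.224 and 0.257 in siDDX17, without overlap. The ratio of WWTR1 to YAP1 was 2.84, 2.71 and 2.60 in siCtrl and 3.27, 3.71 and 3.38 in siDDX17, so TAZ mRNA gained on YAP1 mRNA. The ratio of AJUBA to TEAD1 was 3.35, 2.90 and 2.95 in siCtrl and 2.83, 2.99 and 2.84 in siDDX17. This was the only 1 of the 6 ratios in which the groups overlapped.

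**Figure D3:**
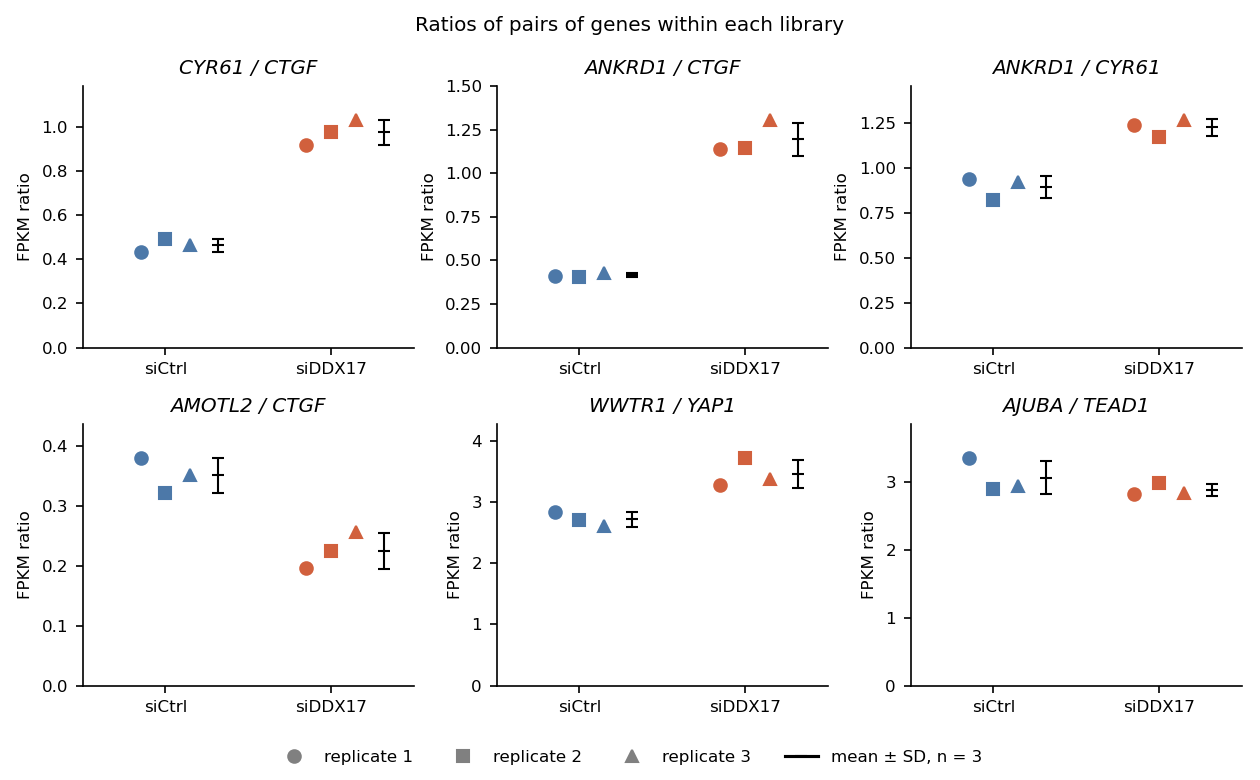
Ratio of FPKM levels for the 6 pairs of genes in each library, on linear axes that start at 0, 1 marker per library and bars for the mean and SD (n = 3), with siCtrl and siDDX17 side by side. CYR61 over CTGF runs from 0.435 to 0.492 in siCtrl and from 0.920 to 1.03 in siDDX17, and AJUBA over TEAD1 overlaps between the groups.

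Per length, AXL was the most abundant of the 10 genes in siCtrl, at 22.1 ± 1.68 FPKM (SD, n = 3). WWTR1 (19.98 ± 1.95 FPKM) and CTGF (19.1 ± 4.29 FPKM) followed, and then AJUBA (11.9 ± 3.90 FPKM). CYR61 (8.80 ± 1.60 FPKM), ANKRD1 (7.89 ± 1.65 FPKM), YAP1 (7.35 ± 0.425 FPKM) and AMOTL2 (6.78 ± 1.99 FPKM) formed a group in which the ranges of neighbours overlapped. Each range down to AMOTL2 overlapped the next, so neighbours could not be ordered, although AXL and WWTR1 lay wholly above AJUBA, and CTGF wholly above CYR61. TEAD1 (3.82 ± 0.926 FPKM) and LATS2 (1.36 ± 0.243 FPKM) each lay below, without overlap.

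In siDDX17, AXL was again at the top, at 30.9 ± 0.970 FPKM. ANKRD1, whose control range had overlapped those of CYR61, YAP1 and AMOTL2, was now second, at 24.7 ± 0.316 FPKM, and did not overlap its neighbours. CTGF (20.7 ± 1.57 FPKM), WWTR1 (20.3 ± 1.31 FPKM) and CYR61 (20.1 ± 0.630 FPKM) could not be ordered. The lower places were AJUBA (11.4 ± 0.161 FPKM), YAP1 (5.89 ± 0.503 FPKM), AMOTL2 (4.65 ± 0.303 FPKM), TEAD1 (3.95 ± 0.171 FPKM) and LATS2 (1.10 ± 0.0854 FPKM), with no overlap between neighbours. YAP1 and WWTR1 together summed to 27.3 ± 2.36 FPKM in siCtrl and 26.2 ± 1.69 FPKM in siDDX17 (exact two-sided permutation p = 0.5, the smallest possible with 3 against 3 being 0.1). FPKM lacks the TMM correction, whose factors were 0.934 to 0.985 in siCtrl and 1.03 to 1.06 in siDDX17. This sum therefore cannot settle whether the groups differed. YAP1 made up 26.1 to 27.8% of that sum in siCtrl and 21.2 to 23.4% in siDDX17. The 4 TEAD genes summed to 26.6 ± 1.76 FPKM in siCtrl and 25.9 ± 0.645 FPKM in siDDX17 (exact permutation p = 0.7), with the same limit from the missing TMM correction. TEAD1 was 12.7 to 17.1% of the TEAD sum in siCtrl and 14.1 to 16.0% in siDDX17, so most TEAD mRNA in these cells came from the other TEAD genes.

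A further 16 genes listed as targets of YAP and TAZ were also mixed. All 16 were tested, of which 5 rose, 5 fell and 6 did not pass the test, with a median log2 fold change of −0.09. These counts were near the 24.5% and 24.3% of all tested genes that rose and fell. Past the log2 limit of 1, CCDC80, IGFBP3 and F3 rose and MYOF fell. CCDC80, an extracellular matrix protein, went from 12.9, 15.6 and 16.1 CPM to 61.1, 58.8 and 59.8 CPM (log2 fold change 2.01, SE 0.0812, edgeR adjusted p = 1.20e-09). IGFBP3, a secreted binding protein of insulin-like growth factors that the study also followed from these libraries, went from 273, 258 and 272 CPM to 715, 681 and 649 CPM (log2 fold change 1.35, SE 0.0587, edgeR adjusted p = 2.38e-09). Both were far above the spread of their replicates. F3, the gene of tissue factor, was low, at 0.559 to 0.881 CPM in siCtrl and 1.26 to 1.64 CPM in siDDX17 (log2 fold change 1.10, SE 0.243, edgeR adjusted p = 0.00210). MYOF, a membrane repair protein, went from 226, 192 and 198 CPM to 82.6, 75.7 and 81.4 CPM (log2 fold change −1.36, SE 0.0697, edgeR adjusted p = 8.60e-09).

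Of the Hippo pathway upstream of YAP, 10 kinases and adaptors were tested, of which 1 rose, 3 fell and 6 did not pass the test. Here too 24.5% of all tested genes rose and 24.3% fell, and with lists of this size the counts below are given as a description. STK4, the kinase MST1, stood at 35.3, 32.1 and 32.6 CPM in siCtrl and 16.1, 16.1 and 15.4 CPM in siDDX17 (log2 fold change −1.07, SE 0.0708, edgeR adjusted p = 7.59e-08). MOB1A, the adaptor that activates LATS kinases, had a log2 fold change of −0.48 (SE 0.0682, edgeR adjusted p = 6.36e-05). Among 8 junctional scaffolds and related upstream genes, 7 were tested, of which 4 rose, none fell and 3 did not pass the test. WWC2, named here after its values were seen, had an unadjusted p of 0.0260 with a lower level (log2 fold change −0.36, edgeR adjusted p = 0.0526). It was counted as fallen by DESeq2, by the edgeR exact test, with RLE scaling in place of TMM and with no filter on low counts. The same held without the second siCtrl, the third siCtrl or the third siDDX17 library, so the absence of a fall among the scaffolds depended on the processing. AMOTL1, the paralog of AMOTL2, went from 4.31, 3.74 and 4.83 CPM to 9.91, 8.70 and 8.59 CPM (log2 fold change 1.07, SE 0.119, edgeR adjusted p = 7.68e-06). These angiomotin genes thus moved in opposite directions, both past the test. WWC1, the gene of the scaffold KIBRA, rose by a log2 fold change of 0.64 (SE 0.0563, edgeR adjusted p = 8.91e-07). Together, 5 of the 17 tested upstream genes rose and 3 fell, with a median log2 fold change of −0.01, against the 24.5% and 24.3% of all tested genes. Without the third siCtrl library 5 fell, and without the first, or with library size scaling, 7 rose.

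Of 7 other TEAD and VGLL genes, 5 were tested, of which 2 fell and none rose (0 at an unadjusted p under 0.05 in edgeR with TMM scaling and 0 in DESeq2). Over all tested genes 24.3% fell and 24.5% rose, and a list this short gives only a description. TEAD3, named here after its values were seen, had a log2 fold change of 0.20 (edgeR adjusted p = 0.135). It passed as higher in edgeR with scaling by library size only and in every limma fit on FPKM. VGLL4, a cofactor that competes with YAP for TEAD factors, went from 35.0, 34.2 and 34.5 CPM to 15.2, 18.6 and 17.5 CPM (log2 fold change −1.02, SE 0.0794, edgeR adjusted p = 3.24e-07). TEAD2 went from 33.8, 33.4 and 32.7 CPM to 24.6, 25.6 and 25.3 CPM (log2 fold change −0.40, SE 0.0625, edgeR adjusted p = 0.000148). Both had closely grouped controls.

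**Figure D4:**
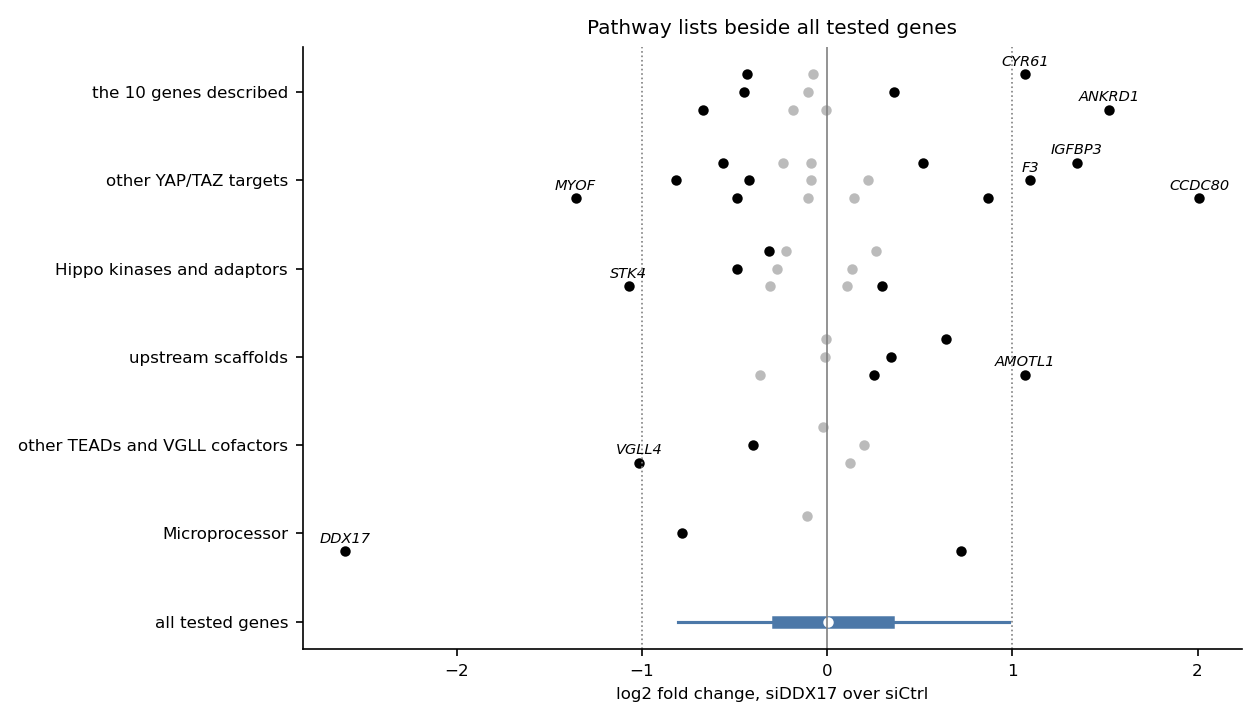
Log2 fold change of siDDX17 over siCtrl for every tested gene of the 10 genes and of the other pathway lists, 1 point per gene, black where the edgeR adjusted p was under 0.05 and grey where it was not, above a bar for all tested genes with their median in white, thick over the interquartile range and thin out to the 5th and 95th percentiles. The target and kinase lists have black points on both sides of 0, and the lowest point is the targeted gene DDX17 at −2.60.

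The Microprocessor genes with which DDX17 works moved apart. DROSHA stood at 17.8, 17.7 and 17.6 CPM in siCtrl and 31.5, 27.8 and 28.4 CPM in siDDX17 (log2 fold change 0.72, SE 0.0727, edgeR adjusted p = 3.27e-06). DGCR8 stood at 22.7, 22.5 and 22.3 CPM in siCtrl and 12.3, 13.7 and 13.3 CPM in siDDX17 (log2 fold change −0.78, SE 0.0743, edgeR adjusted p = 1.90e-06). The controls of both genes were almost identical across libraries. DDX5, the paralog of DDX17, had a log2 fold change of −0.11 (edgeR adjusted p = 0.142), which was 0.01 with library size scaling. Without the first siCtrl library DDX5 fell by 0.16 on the log2 scale (adjusted p = 0.00430).

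An siRNA can lower other mRNAs through a match of its seed (bases 2 to 8) to their 3′ UTR. For the antisense strand of the siRNA against DDX17 this match is TATTGCT, which occurred in the 3′ UTR of 3 of the 10 genes, YAP1, WWTR1 and AMOTL2, and in 1882 of 12987 tested genes with a 3′ UTR of at least 30 bases (14.49%). A longer 3′ UTR has more places for a match. Those of the 10 genes ran from 770 to 7515 bases, and the share over all genes was not matched for length. YAP1 and AMOTL2 fell and WWTR1 did not pass the test. LATS2, which also fell, had no such match in its canonical transcript. For the sense strand of the nontargeting siRNA it is TCGGAGA, which was in none of the 10 and in 2.133% of the same genes. The antisense strand of the nontargeting siRNA was not searched, so these counts cannot be set against each other. The part of these sites in the results was not tested. The 3 sites are shown because 2 of the 3 genes that fell carry one, with the match in capitals, in GRCh38 coordinates and on the strand of the gene.
YAP1, chr11:102230106-102230132, plus strand: gctgttaatgTATTGCTgacctctttc
WWTR1, chr3:149518540-149518566, minus strand: tagatgatttTATTGCTactaaattga
AMOTL2, chr3:134355367-134355393, minus strand: caggaaagcaTATTGCTccaattcaaa

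The genes whose levels most resembled those of 4 of the 10 were sought among 8921 tested genes by Pearson's r of log2 CPM over the 6 libraries. With a difference between the groups, such an r mainly reflects that difference, so it is a description. For ANKRD1 these were CCNYL1, CLIP1 and NEDD4L (r = 0.999 for each), and 97 genes passed 0.99. For CYR61 they included JMJD4 (r = 0.999) and SEMA3A (r = 0.998), and 40 genes passed 0.99. For YAP1 they were FBXW2 (r = 0.998), PHC1 (r = 0.997) and BNIP3L (r = 0.997), and 22 genes passed 0.99. For CTGF, whose pattern is mostly the spread among the controls, the nearest were FAM117A (r = 0.982), DLG4 (r = 0.977) and NIT1 (r = 0.975), no gene passed 0.99 and 6 passed 0.95.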

How the data were processed

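RNA-seq libraries of polyadenylated RNA were strand-specific by the dUTP method. The authors mapped the reads to GRCh38 with TopHat2 and deposited raw counts of reads per gene and FPKM values, the latter normalized for length and library size. The counting program, annotation and use of strand are not given in the sources used here. The 3 cultures of each group are biological replicates by the study's methods.

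The counts were tested with edgeR 4.0.16 (R 4.3.3), using TMM scaling, filterByExpr, glmQLFit and glmQLFTest over all 6 libraries, with Benjamini-Hochberg adjustment over 15615 genes. Standard errors and 95% intervals came from the same fit. Levels between genes were compared in FPKM. The alternatives were DESeq2 1.42.0, limma 3.58.1 on log2(FPKM + 1) or log2(FPKM + 0.1), other scalings and filters, the edgeR exact test, a replicate block and each library left out. The read-count form of the ratios of gene pairs was added after the data were seen. The fit was tested on simulated data in which few genes changed, equally up and down. That simulation did not test the scaling under changes as broad as those found here. Positions, in GRCh38, and 3′ UTRs came from GENCODE 44, and promoters from RefSeq.

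The 10 genes and the pathway lists were chosen with earlier results of these data known. Outside the 10 genes and the 4 Microprocessor genes, genes were named where adjusted p was under 0.05 and the absolute log2 fold change over 1, or as the 2 largest changes of a list with fewer than 2 such genes, and as the 3 nearest by correlation. COL1A2, CD3E and HBB of the marker lists were not used here. 1 of the genes nearest by correlation is not reported here.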

Additional observations from a re-analysis of the deposited data

How the results depend on the processing

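YAP1, ANKRD1, CYR61 and AXL kept their direction and their side of the threshold under all 17 alternatives run for each gene. AMOTL2 lost its call only with limma on log2(FPKM + 1) and no filter (−0.43, adjusted p = 0.143), and LATS2 lost its call under 5 alternatives. Scaling by library size only moved the median log2 fold change of all tested genes from 0.01 to 0.13, and with it CTGF (0.11), TEAD1 (0.041), WWTR1 (0.016) and DDX5 (0.014) changed sign. They also changed sign with limma on log2(FPKM + 1), to 0.13, 0.055, 0.023 and 0.019 with or without the filter, and with a pseudocount of 0.1, to 0.14, 0.071, 0.025 and 0.019. CTGF changed sign as well with upper quartile scaling (0.02) and with at least 10 counts in every library (0.0038). Leaving out each library in turn gave −0.14 to 0.16 for CTGF, −0.20 to 0.11 for TEAD1 and −0.33 to 0.091 for AJUBA. None of these values except that of CTGF without the first siCtrl library and that of AJUBA without the third passed the test; AJUBA also passed with no filter on low counts (−0.19, adjusted p = 0.0344). Of the 10 genes, 1 to 2 were called higher when libraries were left out, CYR61 dropping under the fold limit without the third siCtrl library. At the limits of the methods (p under 0.01 and fold over 1.5) 1 was called lower, and 1 fell with limma on log2(FPKM + 1) and no filter, where 3 of the other targets fell. Of the upstream genes, 5 fell with no filter on low counts, and 3 to 5 when libraries were left out, the 5 being without the third siCtrl library. The causes were not tested. Libraries with the same replicate number had hardly correlated deviations from their group means (0.00698, 0.0407 and −0.0564). With 3 libraries in each group, this cannot show whether the cultures were paired. With the replicate block CTGF was at 0.0055 and no call among the 10 genes changed. LATS2, at 6.97 CPM or less in all but 2 libraries, had the fewest reads of the 10 genes to set its precision.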
